A study of Mus musculus with 28 samples.

Results

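The transcripts described here encode proteins that move nucleosomes, modify histones, read histone marks or accompany RNA polymerase II through chromatin. The rule for membership used gene names alone, from a list of name stems that included Smarc, Hdac, Chd, Kdm, Rbbp, Baz, Arid, Mta, Bptf, Kat, Cbx, Trrap, Ruvbl, Supt, Ssrp1 and Sin3. Of the 3147 rows of the RNA table, 34 carried such a name, and none of these was a Kat or Trrap row. The cells were dendritic cells, the immune cells that take up microbes and show their peptides to T cells, grown from the bone marrow of female C57BL/6J mice aged 6 to 8 weeks in medium with 20 ng per ml of GM-CSF. On day 9 the LPS group received lipopolysaccharide, from the outer membrane of Gram-negative bacteria, at 100 ng per ml, and the mock group received no stimulus. RNA was sequenced 1, 2, 4, 6, 9 and 12 h later in each arm and at 0 h, giving 26 libraries in 13 groups of 2 replicates. A further 2 libraries held ribosome footprints, the stretches of mRNA that ribosomes protect, of unstimulated cells. For the protein measurements of the same study, which were not analysed here, all cultures of the time course had their medium exchanged for another isotope label at 0 h. Whether replicates are separate mice or cultures is not stated in the labels. The p-values therefore reflect library-to-library spread only, and that spread may be technical.

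DNA in the nucleus is wound around histones, and a gene can be transcribed only where this packing lets RNA polymerase pass. ATP-driven remodellers of the SWI/SNF, ISWI and CHD families slide or evict nucleosomes, while deacetylases such as Hdac1, often within the NuRD and Sin3 complexes, remove acetyl groups from histone tails. HP1 proteins (Cbx1, Cbx3 and Cbx5) bind methylated histone H3. FACT and Supt6h handle histones around the moving polymerase, and Supt4h1 and Supt5h form the pausing factor DSIF. In dendritic cells and macrophages, remodelling of promoters and enhancers is part of how LPS, recognised by Tlr4, turns on inflammatory genes.

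All values are TPM, an abundance normalized to transcript length, which sum to 1000000 per library over the listed rows. Read depth per library is therefore unknown, and precision rests on the spread between libraries. The stimulus took effect in the labelled libraries: Il1b, the interleukin 1 beta gene, stood at 10207 and 7374 TPM with LPS at 6 h, against 177 and 70.9 TPM with mock. Dendritic cell markers were represented by 4 of 9 listed genes (Cd74, H2-Aa, H2-Ab1 and Itgax), which summed to 11662 to 20965 TPM in LPS libraries of 6, 9 and 12 h, against 8910 to 17849 TPM in mock libraries. Over the same libraries, 7 of 13 neutrophil and granulocyte precursor markers summed to 1165 to 3043 TPM with LPS, against 2492 to 7193 TPM with mock. The 4 of 7 macrophage markers measured summed to 387 to 780 TPM with LPS, against 583 to 947 TPM with mock. No B cell, T cell or erythroid marker was among the rows. The part of these cell mixtures in the results below was not tested, and in whole cultures fewer cells of a type and less RNA per cell cannot be told apart. Replicate 2 differed from replicate 1 in the same direction along the second principal component (14.3% of the variance) in 13 of 13 groups. The differences were not equal between groups. Over all rows, the replicate differences of any 2 groups correlated at r = 0.05 to 0.83.

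Members ranged widely in abundance before stimulation. Cbx3 was the most abundant at 0 h, with 215 and 409 TPM, followed by Chd4 with 146 and 269.8 TPM and Ssrp1 with 145 and 212 TPM. At the low end, Hdac4 had 9.08 and 26.7 TPM and Sin3a 22.8 and 24.6 TPM. Members had long transcripts, with a median longest annotated mRNA of 4618 bases over 34 members, against 2856 bases over the 3125 rows matched to an annotation.

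The promoters of 28 of the 34 members were found in the RefSeq promoter table of build GRCm38.p6. Among those without an entry were Hdac1, Smarce1, Baz1a, Kdm3b and Arid3a, so the motif counts below do not cover them. Shown here are the 250 bases upstream of the start site, written 5' to 3' on the gene's strand, for the 5 members whose late and early LPS effects differed (limma, adjusted p under 0.05), to set sequence beside that comparison. For Cbx3 the first of 2 start sites is given. Capitals mark matches to the motifs searched, which were E2F in Cbx3 (TTTGGCGC) and NF-Y in Rbbp7, Ruvbl1 and Hdac4 (CCAAT, or ATTGG on the other strand).
Cbx3, chr6:51470366-51470615, plus strand: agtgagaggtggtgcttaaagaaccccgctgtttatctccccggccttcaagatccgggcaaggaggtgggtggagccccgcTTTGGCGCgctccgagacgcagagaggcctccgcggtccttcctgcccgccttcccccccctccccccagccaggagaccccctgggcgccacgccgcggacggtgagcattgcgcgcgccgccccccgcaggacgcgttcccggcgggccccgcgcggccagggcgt
Rbbp7, chrX:162760122-162760371, plus strand: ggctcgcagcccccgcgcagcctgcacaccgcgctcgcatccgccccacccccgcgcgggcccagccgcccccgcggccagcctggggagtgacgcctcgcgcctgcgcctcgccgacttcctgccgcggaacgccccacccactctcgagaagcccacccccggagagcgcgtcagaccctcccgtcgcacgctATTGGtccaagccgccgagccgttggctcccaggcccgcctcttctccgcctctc
Ruvbl1, chr6:88465159-88465408, plus strand: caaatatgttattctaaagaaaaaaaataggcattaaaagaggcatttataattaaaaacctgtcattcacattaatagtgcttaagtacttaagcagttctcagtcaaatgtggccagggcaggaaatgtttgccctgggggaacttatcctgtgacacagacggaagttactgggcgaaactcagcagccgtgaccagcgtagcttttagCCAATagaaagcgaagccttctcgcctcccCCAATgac
Hdac4, chr1:92180342-92180591, minus strand: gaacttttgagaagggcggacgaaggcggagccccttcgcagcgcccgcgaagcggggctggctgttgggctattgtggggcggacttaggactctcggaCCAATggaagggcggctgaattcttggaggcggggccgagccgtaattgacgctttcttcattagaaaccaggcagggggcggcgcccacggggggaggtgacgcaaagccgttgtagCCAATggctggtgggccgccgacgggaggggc
Smarcd2, chr11:106267633-106267882, minus strand: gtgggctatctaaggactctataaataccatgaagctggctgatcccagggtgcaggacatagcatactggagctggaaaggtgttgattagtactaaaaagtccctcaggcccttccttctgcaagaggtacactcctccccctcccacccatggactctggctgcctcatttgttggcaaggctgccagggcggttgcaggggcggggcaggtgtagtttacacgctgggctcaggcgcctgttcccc
The searched motifs were NF-kB in 2 forms, ISRE and NRF1 in 1 form each, E2F (TTTCCCGC or TTTGGCGC), NF-Y (CCAAT) and ETS (CCGGAAGT). Each was searched on both strands over these 250 bases at every listed start site. The 2 NF-kB forms do not cover every NF-kB consensus site. An E2F match lay upstream of 3 of 28 members (Arid1a, Cbx3 and Ssrp1), a share of 10.7%, against 1.51% of 27025 genes. In each of these 3 members it lay at 1 of 2 listed start sites. The 27025 genes are all those with a listed promoter, whether or not they had a row in the RNA table. NF-Y matches occurred in 10 members (35.7%), against 37.5% of all genes. Baz1b alone matched a searched NF-kB form and Cbx5 alone the ISRE form, 3.57% in both cases, against 1.36% and 3.46% of all genes. NF-kB consensus sites outside the searched forms lay, for example, upstream of Bptf, and of Chd4 and Sin3a at 1 of 2 listed start sites each. These are examples and not a full list. Such sites were not counted, in members or in all genes. ETS matches lay upstream of Mta2 and Supt16h (7.14%), against 3.23% of all genes, and 0 members held the NRF1 motif, against 0.877% of all genes. A match describes these letters only and shows no binding.

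LPS lowered more of these transcripts than it raised, and most calls fell at 4 h and later. Over the 6, 9 and 12 h libraries together, called late here, 15 of 34 members differed between LPS and mock, 2 of them higher and 13 lower (limma, adjusted p under 0.05 over all 3147 rows). Of all rows, 63.2% were called in this comparison, 15.5% higher and 47.7% lower, so the members' share did not exceed that of the table, and neither direction is particular to them. The median late log2 difference was -0.45 over the members and -0.43 over all rows. Because TPM have a fixed total, that shift of the whole table depends on the scaling, and after median-ratio rescaling of each library it was -0.03, with -0.05 for the members. On the rescaled values 11 members were called, 4 higher (Hdac1, Smarce1, Supt6h and Kdm3b) and 7 lower (Cbx3, Hdac4, Ruvbl1, Cbx5, Rbbp7, Ssrp1 and Smarcd2), against 52.1% of all rows, 26.2% higher and 25.9% lower. With the replicate number as a term in the fit, 25 members were called, 2 higher and 23 lower, against 76.3% of all rows, 18.6% higher and 57.7% lower. The 10 additional members were all lower with LPS, among them Smarcb1, Smarcc2, Bptf, Chd4, Mta1, Sin3a, Cbx1, Supt5h and Rbbp6.

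**Figure D1:**
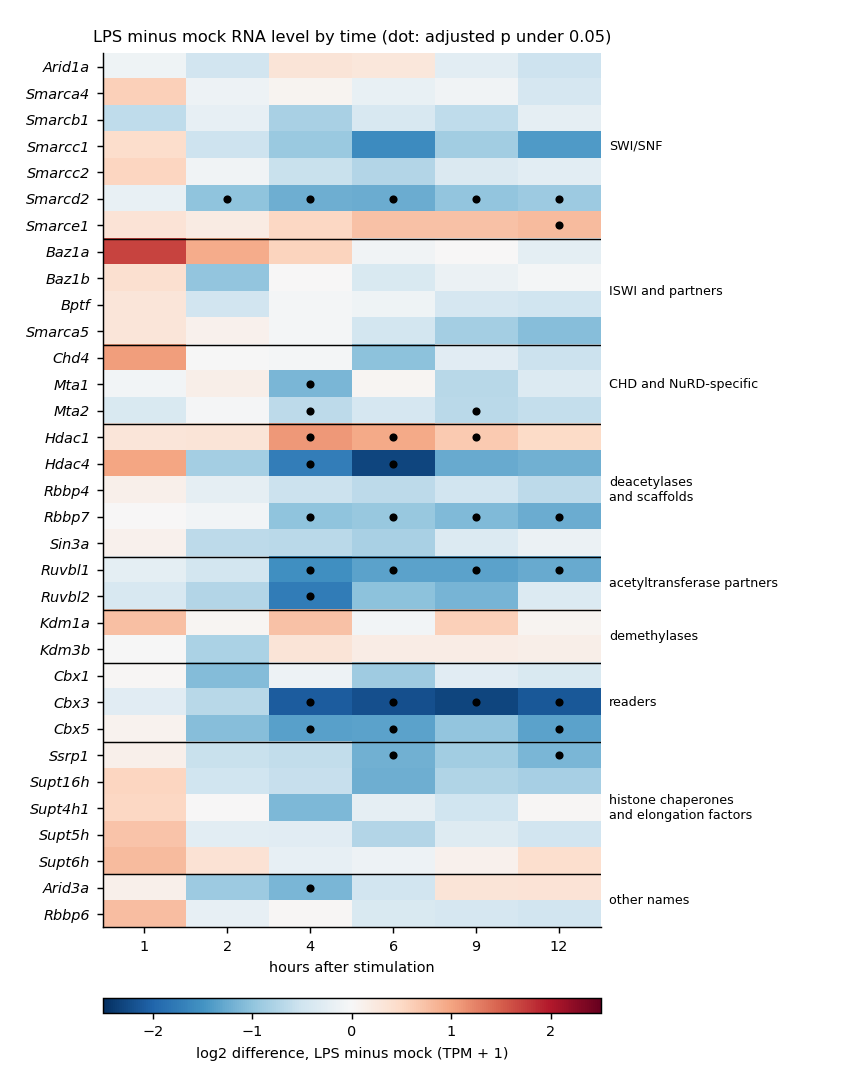
Log2 difference between LPS and mock libraries (TPM + 1) for 33 of the 34 members at 1, 2, 4, 6, 9 and 12 h, grouped by role, with 2 libraries per group. Dots mark adjusted p under 0.05 over all rows, which begin at 2 h with Smarcd2 and run in Cbx3, Rbbp7 and Ruvbl1 over 4, 6, 9 and 12 h.

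Among the readers of histone marks, 2 of 4 were called late, both lower and both of the HP1 family. Cbx3, which encodes HP1 gamma, held 47.5 to 86.2 TPM in the 6 late LPS libraries with a median of 62.1, against 224.5 to 377 TPM with a median of 302 in the 6 late mock libraries. No LPS library reached the lowest mock library. The late log2 difference was -2.20 ± 0.21 (SE, n = 6 against 6 libraries, limma adjusted p = 1.23e-07), and -1.80 after rescaling. In the early libraries Cbx3 stood at 211 and 268 TPM with LPS at 1 h, against 275 and 301 TPM with mock, and at 138 and 262 TPM with LPS at 2 h, against 249 and 382 TPM with mock. By 4 h it had reached its low level, with 53.3 and 71.7 TPM with LPS, against 254 and 278 TPM with mock. Single-time log2 differences at 4, 6, 9 and 12 h lay between -2.30 and -2.09 and were called at each of these times, and the late call was kept in all 12 fits that left out 1 library. The annotation names 8 pseudogene copies of Cbx3, so reads shared with these copies make its level uncertain.

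Cbx5, which encodes HP1 alpha, had 10.7 to 22.1 TPM in late LPS libraries with a median of 12.6, against 27.2 to 55.4 TPM with a median of 33.5 in late mock libraries. Again the arms did not overlap, and the late log2 difference was -1.22 ± 0.28 (SE, limma adjusted p = 0.00114). Under quantile normalization it was -0.64 and not called (adjusted p = 0.0895). Cbx1, which encodes HP1 beta, had 23.1 to 49.9 TPM with LPS, against 35.8 to 87.6 TPM with mock, and its difference of -0.52 ± 0.29 did not pass (limma adjusted p = 0.132, or 0.0101 with the replicate term).

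The proportions among the HP1 transcripts could be compared within each library, as ratios of TPM + 1, like all ratios between members below. The scaling of a library largely cancels in such a ratio, but not fully, because of the added 1. The ratio of Cbx3 to Cbx1 was 1.24 to 2.43 in late LPS libraries, with a median of 2.03. In late mock libraries it was 3.67 to 7.60, with a median of 6.50. All 6 LPS ratios lay under all 6 mock ratios, and the mean log2 ratio differed by -1.69 (two-sided exact permutation within times, 216 arrangements, p = 0.00926, the smallest they can give, adjusted p = 0.0309 over 10 pairs). The ratio of Cbx5 to Cbx1 had a median of 0.468 with LPS, against 0.763 with mock, a mean log2 difference of -0.70 with the same adjusted p of 0.0309 by that exact test. Cbx3 also fell relative to Cbx5. That ratio was 2.74 to 5.98 with a median of 4.44 with LPS, against 5.77 to 9.85 with a median of 8.82 with mock. These ranges overlapped, and the mean log2 difference was -0.98 (exact permutation within times, adjusted p = 0.0309). By this test the 3 HP1 transcripts changed by unequal amounts, with Cbx3 lowered most and Cbx1 least. Each of the 3 ratios was also lower with LPS in 6 of 6 pairs of libraries of the same time and replicate number. An exact permutation that exchanged arms only within these pairs, chosen after seeing the data, gave p = 0.0312 for each, the smallest its 64 arrangements can give, which did not pass over the 10 ratios (adjusted p = 0.0625).

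**Figure D2:**
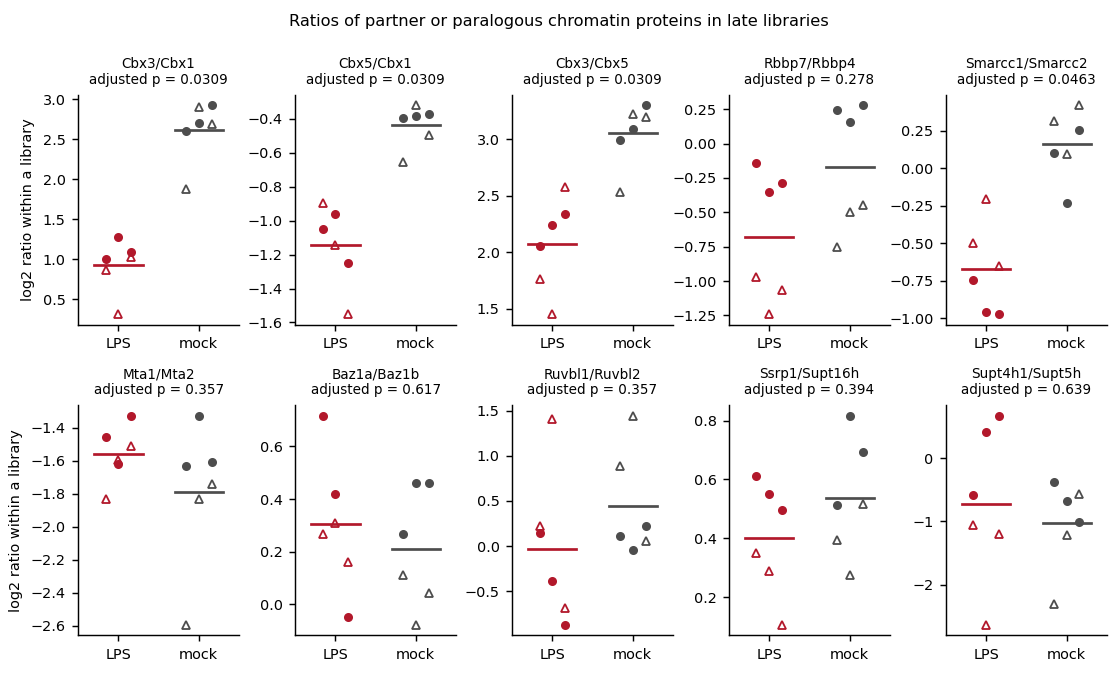
Log2 ratio (TPM + 1) of 2 members within each late library (6, 9 and 12 h from left to right within an arm), for 10 pairs of paralogs or partners. Filled circles are replicate 1, open triangles replicate 2, bars the mean of 6 libraries, and titles give the exact permutation p adjusted over the 10 pairs. The arms separate for Cbx3/Cbx1 and Cbx5/Cbx1 and overlap across times for Cbx3/Cbx5. For Rbbp7/Rbbp4, replicate 1 lies above replicate 2 in both arms.

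The deacetylases and their scaffold proteins moved in both directions, with 1 of 5 called higher and 3 lower. Hdac1, a class I deacetylase and the catalytic subunit of NuRD and Sin3 complexes, had 150.2 to 303 TPM in late LPS libraries with a median of 219, against 119 to 150.4 TPM with a median of 136 in late mock libraries. The ranges touched only at the lowest LPS and the highest mock library. The late log2 difference was 0.69 ± 0.13 (SE, limma adjusted p = 1.57e-04), and 1.10 after rescaling. Its level was highest at 4 and 6 h. There it stood at 234.5 and 278 TPM with LPS at 4 h, against 134 and 106 TPM with mock, and at 231 and 303 TPM with LPS at 6 h, against 126 and 147 TPM with mock. At 12 h it stood at 150.2 and 207 TPM with LPS, against 135 and 119 TPM with mock, and was not called there (limma adjusted p = 0.101, or 0.0369 with the replicate term).

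Hdac4, a class IIa deacetylase that shuttles between nucleus and cytoplasm, went the other way. It had 2.78 to 9.26 TPM in late LPS libraries with a median of 4.15, against 9.52 to 32.0 TPM with a median of 17.9 in late mock libraries, with no overlap. On the log2 scale, late LPS minus mock was -1.59 ± 0.35 (SE, limma adjusted p = 9.17e-04), but -0.76 and not called under quantile normalization (adjusted p = 0.131). At 1 h, by contrast, Hdac4 stood at 20.0 and 43.0 TPM with LPS, against 10.5 and 19.3 TPM with mock, a log2 difference of 0.99 ± 0.61 (limma adjusted p = 0.417, or 0.0275 with the replicate term). Its lowest values came at 6 h, with 2.78 and 4.18 TPM with LPS, against 13.2 and 32.0 TPM with mock.

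Rbbp4 and Rbbp7 are WD40 proteins that hold histones H3 and H4 in NuRD, Sin3 and several other complexes. Rbbp7 had 22.5 to 41.4 TPM in late LPS libraries with a median of 34.3, against 54.6 to 89.4 TPM with a median of 72.1 in late mock libraries. On the log2 scale, late LPS minus mock was -1.10 ± 0.18 (SE, limma adjusted p = 4.79e-05), while at 1 h it stood at 102 and 80.6 TPM with LPS, against 97.4 and 84.7 TPM with mock. Rbbp7 was called at each of 4, 6, 9 and 12 h, but these differences moved when 1 library of that time was left out. Over such fits they ranged from -1.18 to -0.83 at 4 h and from -1.31 to -0.60 at 6 h. The range was -1.36 to -0.84 at 9 h and -1.63 to -0.84 at 12 h. Replicate 2 was lower than replicate 1 in all 13 groups for Rbbp7 and higher in 12 of 13 for Rbbp4, yet the arms separated within each replicate number. Rbbp4 had 45.9 to 75.1 TPM with LPS, against 63.9 to 92.9 TPM with mock and a late log2 difference of -0.59 ± 0.15 (limma adjusted p = 0.0032, or 0.354 after rescaling). The ratio of Rbbp7 to Rbbp4 had a median of 0.648 with LPS, against 0.923 with mock, and its difference did not pass (exact permutation adjusted p = 0.278). It was nevertheless lower with LPS in 6 of 6 pairs of the same time and replicate number (exact permutation within these pairs, p = 0.0312, adjusted p = 0.0625). Sin3a, the scaffold of the Sin3 complex, had 10.3 to 23.1 TPM with LPS, against 14.9 to 33.3 TPM with mock and was not called (limma adjusted p = 0.1, or 0.0101 with the replicate term).

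**Figure D3:**
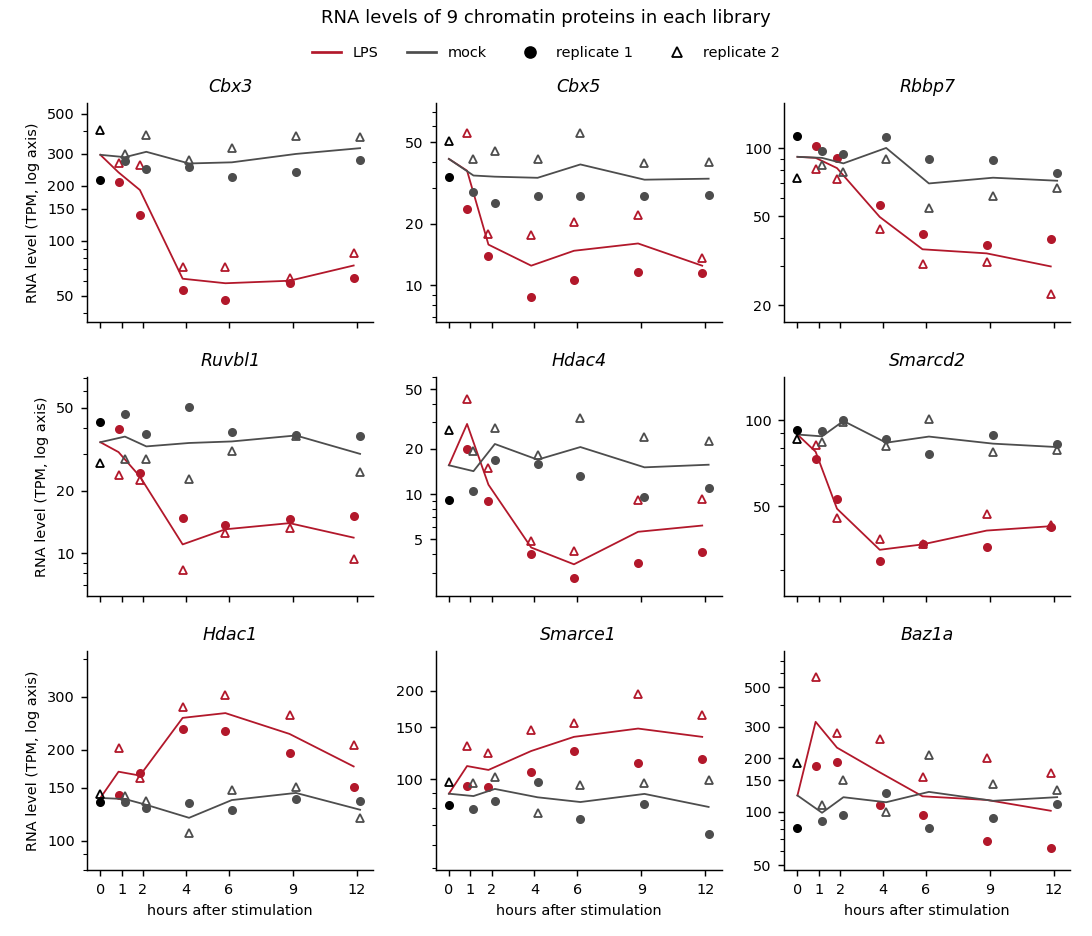
RNA level in TPM on a log axis against hours after stimulation for 9 members, with every library shown. Red is LPS, grey mock and black 0 h, filled circles are replicate 1 and open triangles replicate 2, and lines join geometric means. LPS libraries of Cbx3 drop between 2 and 4 h to 53.3 and 71.7 TPM and stay low, the LPS lines of Hdac1 and Smarce1 lie above mock, and that of Baz1a peaks at 1 h.

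Ruvbl1 and Ruvbl2 form a ring of AAA+ ATPases that serves in the INO80, SWR1-type and TIP60 acetyltransferase complexes, and both transcripts fell late on the deposited scale, Ruvbl1 alone also after rescaling. Ruvbl1 had 9.39 to 15.0 TPM in late LPS libraries with a median of 13.4, against 24.7 to 38.4 TPM with a median of 36.6 in late mock libraries. The late log2 difference was -1.32 ± 0.22 (SE, limma adjusted p = 6.56e-05), and single-time differences at 4, 6, 9 and 12 h lay between -1.54 and -1.27. Each of these 4 calls was lost in 2 of 4 fits, those without replicate 1 of mock or replicate 2 of LPS of that time, and the 4 h value ranged from -2.09 to -0.98. Ruvbl2 was more scattered, with 4.36 to 28.4 TPM in late LPS libraries, against 12.8 to 38.3 TPM in late mock libraries. At 4 h it stood at 9.79 and 10.2 TPM with LPS, against 37.9 and 34.2 TPM with mock, a log2 difference of -1.75 ± 0.57 (limma adjusted p = 0.0238). That call was lost in each of the 4 fits without 1 of its libraries (highest adjusted p = 0.104) and after rescaling (adjusted p = 0.0942). At 12 h it stood at 28.4 and 15.8 TPM with LPS, against 31.3 and 23.6 TPM with mock. Its late difference of -0.84 ± 0.33 (limma adjusted p = 0.036, or 0.254 after rescaling) lost the call in 7 of 12 fits that left out 1 library, with values from -1.16 to -0.52. These fits were those without replicate 1 of mock or replicate 2 of LPS at any of the 3 times, and without replicate 1 of LPS at 6 h.

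SWI/SNF complexes, built around the ATPase Smarca4 (BRG1) or its paralog, showed 1 subunit higher and 2 lower of the 7 measured. Smarce1, the BAF57 subunit, had 114 to 194 TPM in late LPS libraries with a median of 140.1, against 65.4 to 99.3 TPM with a median of 88.9 in late mock libraries. It was the 1 member whose LPS libraries all lay above all mock libraries late, where 10.3% of all rows did so. The late log2 difference was 0.75 ± 0.17 (SE, limma adjusted p = 0.00111), and 1.15 after rescaling. The annotation names 1 pseudogene copy of Smarce1.

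Smarcd2, the BAF60b subunit, known in mice and humans for its role in neutrophil maturation, was the 1 member called at 2 h. It stood at 53.0 and 45.4 TPM with LPS at 2 h, against 100.3 and 98.7 TPM with mock (log2 difference -1.01 ± 0.18, limma adjusted p = 7.29e-04). In late LPS libraries it had 36.1 to 46.9 TPM with a median of 39.5, against 76.1 to 101 TPM with a median of 80.7 in late mock libraries, a log2 difference of -1.04 ± 0.10 (limma adjusted p = 1.53e-07). It was called at every single time from 2 h on. As given above, the neutrophil and granulocyte precursor markers summed to 1165 to 3043 TPM in late LPS libraries, against 2492 to 7193 TPM in late mock libraries, and whether the 2 are linked was not tested.

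Smarcc1 and Smarcc2 are the paralogous scaffolds BAF155 and BAF170. Smarcc1 had 17.9 to 61.7 TPM in late LPS libraries with a median of 28.7, against 47.9 to 131 TPM with a median of 70.9 in late mock libraries. The ranges overlapped, and the late log2 difference was -1.28 ± 0.38 (SE, limma adjusted p = 0.00768), or 0.0698 for the adjusted p after rescaling. Smarcc2 had 30.7 to 71.1 TPM with LPS, against 45.7 to 105 TPM with mock and was not called (-0.45 ± 0.27, limma adjusted p = 0.149, or 0.00284 with the replicate term). Within libraries, the ratio of Smarcc1 to Smarcc2 had a median of 0.616 with LPS, against 1.13 with mock (mean log2 difference -0.83, exact permutation adjusted p = 0.0463), lower in 6 of 6 pairs of the same time and replicate number (adjusted p = 0.0625 by exact permutation within pairs). Smarca4, Smarcb1 and Arid1a, the BRG1 ATPase, a core subunit and a DNA-binding subunit, were not called without the replicate term, with late log2 differences between -0.42 and -0.16. With that term Smarcb1 was called (-0.42, limma adjusted p = 0.00875).

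Of the ISWI remodellers and their partners, 1 of 4 was called late. Smarca5, the SNF2H ATPase, had 39.9 to 115 TPM in late LPS libraries with a median of 73.0, against 91.7 to 167 TPM with a median of 119 in late mock libraries (log2 difference -0.79 ± 0.28, limma adjusted p = 0.0206, or 0.286 after rescaling). That call was lost in 6 of 12 fits, those without replicate 2 of mock or replicate 1 of LPS at any of the 3 times, with values from -1.01 to -0.57 over all 12. Baz1a (ACF1), its partner in the ACF complex, had the largest early log2 difference of the members. It stood at 179 and 569.6 TPM with LPS at 1 h, against 89.1 and 109 TPM with mock, and at 189.7 and 276 TPM with LPS at 2 h, against 96.3 and 151 TPM with mock. All 4 early LPS libraries lay above all 4 early mock libraries. The early log2 difference of 1.30 ± 0.46 did not pass (limma adjusted p = 0.0618) but did with the replicate term (adjusted p = 8.58e-04). By the late times the arms overlapped, with a median of 126 TPM with LPS, against 121 TPM with mock. Baz1b (WSTF) and Bptf, the histone-reading subunit of NURF, were not called early or late without the replicate term, and with it Bptf was called late (-0.35, limma adjusted p = 0.044).

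Among NuRD-specific members, 1 of 3 was called late. Mta2, a scaffold of NuRD, had 41.4 to 66.3 TPM in late LPS libraries with a median of 59.5, against 77.0 to 92.2 TPM with a median of 79.2 in late mock libraries, with no overlap. Its log2 difference of -0.56 ± 0.13 (SE, limma adjusted p = 0.00169) was close to the shift of the whole table, and after rescaling it was -0.16 (adjusted p = 0.302). Mta1, its paralog, was called at 4 h, with 16.8 and 12.8 TPM with LPS, against 35.4 and 31.6 TPM with mock (-1.14 ± 0.35, limma adjusted p = 0.0158, or 0.127 after rescaling). That call was lost without replicate 1 of mock or replicate 2 of LPS of 4 h (highest adjusted p = 0.119). Late, Mta1 was called with the replicate term alone (-0.33, limma adjusted p = 0.0469, or 0.159 without it). Chd4, the ATPase of NuRD, stood at 242 and 524.5 TPM with LPS at 1 h, against 152 and 193 TPM with mock. Its difference there was 1.05 ± 0.49 (limma adjusted p = 0.27, or 0.0145 with the replicate term). Late it had 98.9 to 269 TPM with LPS, against 166 to 392 TPM with mock (-0.62 ± 0.29, limma adjusted p = 0.0669, or 0.0016 with the replicate term).

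FACT, the histone chaperone that loosens nucleosomes ahead of the polymerase, is made of Ssrp1 and Supt16h, and both fell on the deposited scale, Ssrp1 alone also after rescaling. Ssrp1 had 58.5 to 126 TPM in late LPS libraries with a median of 78.4, against 140.0 to 240.4 TPM with a median of 159 in late mock libraries, with no overlap. On the log2 scale, late LPS minus mock was -1.07 ± 0.20 (SE, limma adjusted p = 2.33e-04). Supt16h had 39.6 to 103 TPM with LPS, against 84.0 to 182 TPM with mock (-0.93 ± 0.29, limma adjusted p = 0.0103, or 0.161 after rescaling). The ratio of Ssrp1 to Supt16h had a median of 1.34 with LPS, against 1.43 with mock, with a mean log2 difference of -0.13 (exact permutation adjusted p = 0.393). That ratio had a standard deviation of 0.19 with LPS and 0.20 with mock on the log2 scale, over 6 libraries each.

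Among the elongation factors, Supt6h was called early. Supt6h, a histone chaperone that binds the elongating polymerase, stood at 44.8 and 81.0 TPM with LPS at 1 h, against 30.9 and 38.5 TPM with mock, and at 48.7 and 49.8 TPM with LPS at 2 h, against 38.3 and 38.1 TPM with mock. Its early log2 difference was 0.57 ± 0.17 (SE, n = 4 against 4 libraries, limma adjusted p = 0.0236). The call was lost in 6 of 8 fits that left out 1 early library, those other than mock replicate 2 and LPS replicate 1 of 1 h, with values from 0.36 to 0.78 over all 8. It was also lost with trends of transcript length and GC content removed (adjusted p = 0.0635). Late, Supt6h had a median of 36.0 TPM with LPS, against 32.6 TPM with mock. Supt5h, the large subunit of the pausing factor DSIF, was not called (late -0.52 ± 0.24, limma adjusted p = 0.0653, or 0.00668 with the replicate term). The row of its partner Supt4h1 is shared with Gm3258, so its level is uncertain, and it was not called.

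The demethylases Kdm1a (LSD1) and Kdm3b were not called at any time with the deposited scaling. Kdm1a showed how far the replicate numbers can differ, with 53.1 to 245 TPM in late LPS libraries, against 48.2 to 194 TPM in late mock libraries, and replicate 2 above replicate 1 in 13 of 13 groups. Kdm3b had a late median of 25.1 TPM with LPS, against 22.6 TPM with mock, and was called higher after rescaling (0.56, adjusted p = 0.0332). A further 2 names belong to proteins of other kinds. Arid3a, a transcription factor known from B cells, was called lower at 4 h, with 16.2 and 21.3 TPM with LPS, against 46.8 and 38.4 TPM with mock (-1.15 ± 0.42, limma adjusted p = 0.0406). That call was lost in each of the 4 fits without 1 of its libraries (highest adjusted p = 0.182) and after rescaling (adjusted p = 0.278). Rbbp6, a ubiquitin ligase of mRNA 3' end processing, had 31.7 to 111 TPM in late LPS libraries, against 51.9 to 133 TPM in late mock libraries, and was not called (limma adjusted p = 0.439, or 0.042 with the replicate term).

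**Figure D4:**
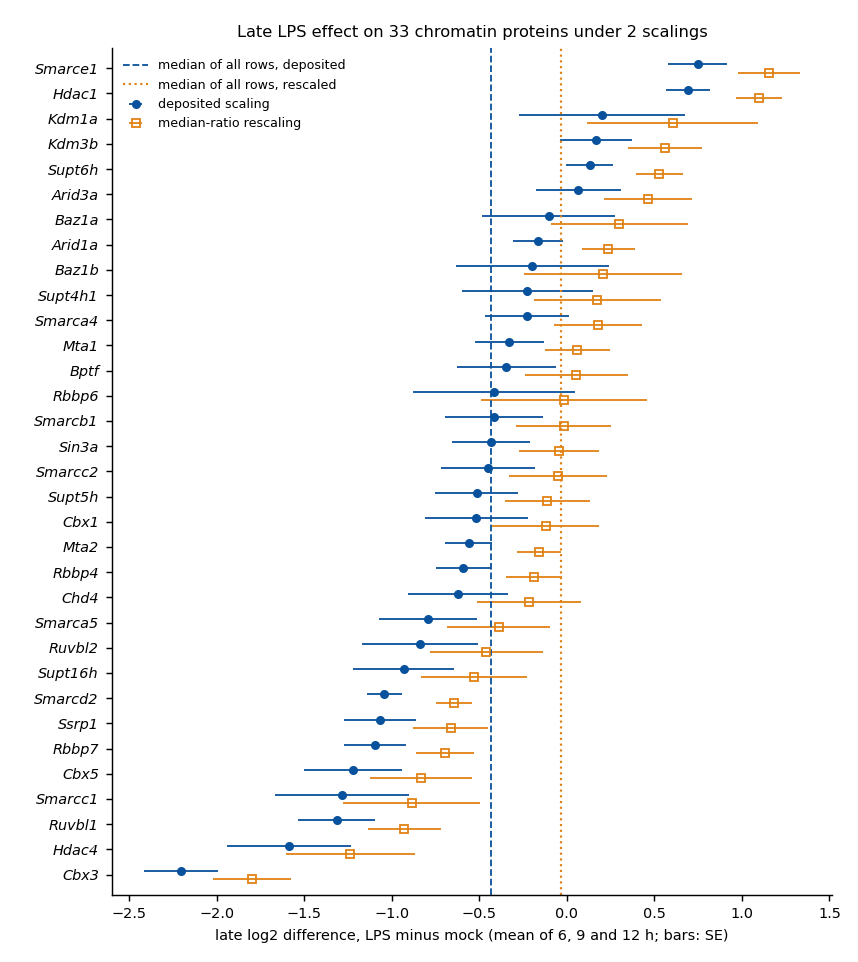
Late log2 difference between LPS and mock (mean of 6, 9 and 12 h) with its SE for 33 of the 34 members, on the deposited TPM (filled circles) and after median-ratio rescaling (open squares). Vertical lines give the median of all 3147 rows on each scale, -0.43 and -0.03. Smarce1 and Hdac1 lie above 0 and Cbx3, Hdac4 and Ruvbl1 lowest on both scales.

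By time, 0, 1, 11, 8, 6 and 7 members were called at 1, 2, 4, 6, 9 and 12 h, against 4.07%, 14.4%, 37.9%, 41.2%, 40.1% and 36.8% of all rows. At 1 h, 3 members had an unadjusted limma p under 0.05, and with the replicate term 4 were called (Baz1a, Chd4, Hdac4 and Supt6h), all higher with LPS, against 17.3% of all rows. At the other times the replicate term gave 7, 18, 18, 18 and 15 called members, against 27.7%, 57.1%, 57.8%, 56.9% and 53.2% of all rows. Leaving out 1 library of 4 h in turn left 3 to 7 calls at that time. Of the 10 members called lower at 4 h, 3 were called after rescaling and 2 under quantile normalization. The joint F test over the 6 times called 11 members (Smarcd2, Smarce1, Mta2, Hdac1, Hdac4, Rbbp4, Rbbp7, Ruvbl1, Cbx3, Cbx5 and Ssrp1), against 57.2% of all rows, and 27 with the replicate term, against 80.5%. After rescaling 8 were called, against 45.4% of all rows, and Mta2 (limma adjusted p = 0.513), Rbbp4 (0.934), Cbx5 (0.115) and Ssrp1 (0.216) were not among them.

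The early comparison, over 1 and 2 h, called 2 members, Supt6h higher and Smarcd2 lower, against 18.1% of all rows (8.39% higher and 9.72% lower). With the replicate term 6 were called, Baz1a, Chd4 and Supt6h higher and Cbx3, Cbx5 and Smarcd2 lower, against 33.6% of all rows, 14.2% higher and 19.4% lower. Early arms did not overlap in 4 members, Baz1a, Hdac1 and Supt6h above mock and Smarcd2 below, against 18.8% of all rows, 8.13% higher and 10.7% lower. Late arms did not overlap in 9 members, Smarce1 above mock and Smarcd2, Mta2, Hdac4, Rbbp7, Ruvbl1, Cbx3, Cbx5 and Ssrp1 below, against 40.4% of all rows, 10.3% higher and 30.2% lower.

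The difference between the late and the early effect was tested itself and called 5 members, all lower late, against 30.4% of all rows (8.17% higher and 22.2% lower). These were Cbx3 (-1.72 ± 0.33, limma adjusted p = 9.66e-04), Rbbp7 (-1.06 ± 0.28, adjusted p = 0.00907), Hdac4 (-1.66 ± 0.56, adjusted p = 0.0329), Smarcd2 (-0.45 ± 0.16, adjusted p = 0.0421) and Ruvbl1 (-0.96 ± 0.35, adjusted p = 0.0457). Cbx3 and Rbbp7 kept the call in all 20 fits that left out 1 library and after rescaling. Smarcd2, Hdac4 and Ruvbl1 lost it in 15, 10 and 16 of these fits. Under quantile normalization Cbx3 alone was called, and Rbbp7 had an adjusted p of 0.0881. After rescaling 4 members were called, 2 higher (Smarce1 and Hdac1) and 2 lower (Cbx3 and Rbbp7), against 23.8% of all rows, 13.3% higher and 10.5% lower, so the balance of directions depended on the scaling. With the replicate term 17 members were called, 1 higher (Smarce1) and 16 lower, against 49.1% of all rows, 11.9% higher and 37.2% lower.

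No member was called between late mock and unstimulated cells. Late mock libraries compared with 0 h called 0 of 34 members and 0% of all rows in limma, 0 members had an unadjusted p under 0.05, and 2 did with the replicate term. Late mock minus 0 h was -0.03 for Hdac1, -0.08 for Smarce1 and 0.11 for Hdac4 on the log2 scale, where late LPS minus 0 h was 0.66 for Hdac1, 0.67 for Smarce1 and -1.48 for Hdac4. The differences of largest size were -0.51 ± 0.28 for Mta1 and -0.35 ± 0.25 for Rbbp7.

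Members differed between the replicate numbers along with transcript length. Replicate 2 minus replicate 1, averaged over 13 groups, was 1.18 for Kdm1a, 1.17 for Rbbp6 and 1.10 for Baz1b on the log2 scale, and -0.68 for Ruvbl2, -0.67 for Smarcb1 and -0.66 for Supt4h1. Spearman's rho of this difference with mRNA length was 0.57 over the 34 members, which share the same libraries, and 0.22 over 3125 rows. For the LPS effects the same rho was 0.19 early and 0.14 late over the members, and 0.32 early and 0.13 late over all rows. When each library was cleared of its trends with transcript length and GC content, an alternative chosen after seeing the data, 20 members were called late, 2 higher and 18 lower, against 69% of all rows, 13.4% higher and 55.6% lower.

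In resting cells, footprints could be set beside 0 h RNA for 33 of the 34 members, relative to the median of 2739 shared rows. Relative to these library medians, 7 members differed, 2 higher and 5 lower (limma adjusted p under 0.05), where 26.7% of all shared rows were called, 13.7% higher and 13% lower. Rbbp4 had 141 and 164 TPM of footprints, against 86.0 and 91.6 TPM of RNA, a log2 ratio of 1.61 ± 0.24 relative to these medians (limma adjusted p = 0.0119). Its paralog Rbbp7 had 120.5 and 151 TPM of footprints, against 114 and 74.0 TPM of RNA (1.38 ± 0.27, limma adjusted p = 0.0215). These 2 had the highest footprint levels of the 33 members, while Cbx3, the most abundant by RNA, had 86.0 and 116 TPM of footprints, against 215 and 409 TPM of RNA and was not called.

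At the other end stood Rbbp6, with 6.85 and 8.05 TPM of footprints, against 47.3 and 119 TPM of RNA (-2.34 ± 0.47, limma adjusted p = 0.0222). Bptf had 5.73 and 5.62 TPM of footprints, against 34.2 and 57.2 TPM of RNA (-1.93 ± 0.34, limma adjusted p = 0.0165). Arid1a and Supt5h were also called lower, with log2 ratios of -1.07 and -0.90. Baz1a, at -1.46 ± 0.44 (limma adjusted p = 0.0552), and Cbx5, at 1.09 ± 0.34 (limma adjusted p = 0.0584), had the lowest and the highest ratio of those not called. The median ratio over 33 members was -0.53, against 0.11 over all shared rows. With the replicate term 14 members were called, 5 higher and 9 lower, against 37.4% of all shared rows, 19.6% higher and 17.8% lower. The counts rest on few libraries, since they were 2 without footprint replicate 1, 2 without footprint replicate 2, 28 without 0 h replicate 1 and 16 without 0 h replicate 2. Over all 2739 shared rows the same fits called 223, 227, 2055 and 1597.

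**Figure D5:**
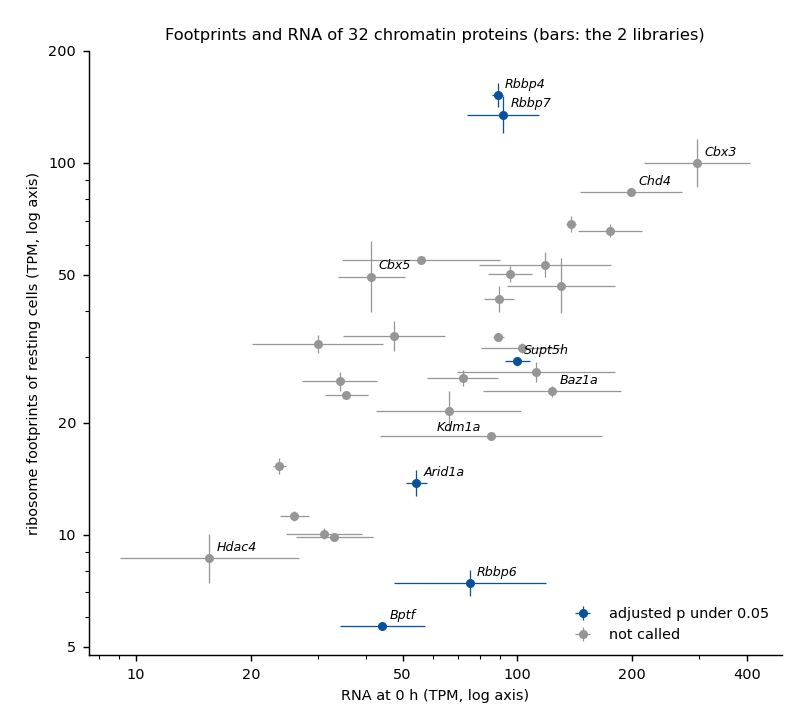
Ribosome footprints of resting cells against RNA at 0 h, both in TPM on log axes, for 32 of the 33 members in both tables. Points are geometric means, bars span the 2 libraries, and blue marks adjusted p under 0.05 for the ratio relative to the library medians. Rbbp4 and Rbbp7 lie highest, with 141 and 164 and with 120.5 and 151 TPM of footprints, and Rbbp6 and Bptf lowest among the blue points.

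A wider list of chromatin regulators outside the chosen names, drawn up by hand, had 41 of 96 genes in the table. Late, 2 of these were higher with LPS and 21 lower, with a median of -0.65, and 7 higher and 12 lower after rescaling. Of all rows, 15.5% were called higher and 47.7% lower late, and 26.2% higher and 25.9% lower after rescaling. Daxx, a chaperone of histone H3.3, averaged 318 ± 80.4 TPM in late LPS libraries and 30.2 ± 3.4 TPM in late mock libraries (SD, n = 6 each), a log2 difference of 3.32 ± 0.10 (limma adjusted p = 1.67e-13). Sap30, a subunit of the Sin3 complex that also holds Hdac1 and Rbbp7, averaged 141 ± 71.4 TPM with LPS and 35.8 ± 7.57 TPM with mock (1.81 ± 0.20, limma adjusted p = 5.82e-07). The largest falls were those of Prmt5, an arginine methyltransferase, at -1.84 ± 0.14, and of Hmgb1, a DNA-bending protein, at -1.64 ± 0.37. A list of DNA replication and cell division genes had 22 of 34 in the table, of which 0 were higher and 20 lower late, with a median of -1.54. After rescaling 18 were lower. The shares of all rows called lower were the 47.7% and 25.9% given above. Whether the falls of Cbx3, Cbx5, Rbbp7 and FACT are tied to this fall in replication genes was not tested.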

How the data were processed

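RNA of the 26 time-course libraries was poly(A)-selected and sequenced strand-specifically in read pairs, per the labels' protocols. The submitters' processing notes name Bowtie 0.12.7, RSEM 1.2.3, Bowtie2 and TopHat2 and the build mm9, without roles. The RNA table deposited by the authors holds TPM for 3147 rows. Footprint values deposited by the authors were taken as TPM, since each column sums to 1000000. Each 0 h library is listed in both arms with identical values and was used once. For the 4 h samples the description field names another hour. Title, time and table columns all give 4 h, which was used. Read counts, and with them depth, are not known from TPM.

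Values were tested as log2(TPM + 1) with limma 3.58.1 in R 4.3.3, with 13 groups, a variance trend with abundance and Benjamini-Hochberg adjustment over all 3147 rows at 0.05, leaving 13 residual degrees of freedom. A fold on this scale understates changes of low transcripts. Late is the mean over 6, 9 and 12 h, early over 1 and 2 h. All 34 members passed the filter of 1 TPM in 2 libraries. Over 2739 shared rows, footprints were set against RNA of 0 h after centring each library on its median. Ratios within libraries were taken on TPM + 1 and compared by an exact permutation test within times. The members and lists were chosen with earlier results of these data known. Values are given for the largest late changes, those at single times, those that differed between late and early, the most abundant member of each role and the extreme footprint ratios. One member counts in every total and is not reported here by name or value. The scripts were tested on simulated data. Lengths and GC content came from GENCODE M21 for 3125 rows (99.3%) and promoters from RefSeq, and figures were drawn with Python 3.11.15 and matplotlib 3.10.9.

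Replicates carry the same numbers in all groups, with no statement in the titles of what a number stands for. Deviations of same-numbered LPS and mock libraries correlated at all 6 times (r = 0.227 to 0.685), so the numbers were taken to pair the samples, and values with the replicate number as a block are given where they change an early or late call.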

Additional observations from a re-analysis of the deposited data

Results flagged for a closer look

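The late LPS effect differed from the early one, by a test of the difference itself, in 5 members, all lower late (limma, adjusted p under 0.05 over all rows). The log2 difference between the effects was -1.72 for Cbx3, -1.66 for Hdac4, -1.06 for Rbbp7, -0.96 for Ruvbl1 and -0.45 for Smarcd2. Smarcd2 already lay below mock early, at -0.59, and stood at -1.04 late. The other 4 had early effects between -0.49 and 0.07 that were not called without the replicate term. With it Cbx3 was called lower early (-0.49, limma adjusted p = 0.0106).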

How the results depend on the processing

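Changes of pseudocount, a minimum of 10 TPM and the fit of the compared groups alone left the late count of called members within 1.5 times of 15. With the replicate block the counts were 25 late, 6 early, 17 for late minus early, 27 for the F test, 4, 7, 18, 18, 18 and 15 at 1, 2, 4, 6, 9 and 12 h and 14 for footprints, and 0 of 55 single calls was lost. With length and GC trends removed they were 4 early (0 higher and 4 lower, where the values as deposited gave 1 and 1), 9 for late minus early, 17 for the F test, 3 at 2 h, 15 at 6 h and 12 at 12 h. Of 3125 rows, this alternative called 591 early, 1045 for late minus early and 1937 for the F test. At 2, 6 and 12 h it called 481, 1485 and 1282 of these rows. Quantile normalization gave 1 for late minus early, 7 for the F test, 3 at 4 h and 5 at 6 h, and rescaling gave 6 at 4 h and 5 at 6 h. Over all 3147 rows quantile normalization called 663 for late minus early, 1482 for the F test, 810 at 4 h and 954 at 6 h, and rescaling 850 at 4 h and 1032 at 6 h. The compared groups alone gave 1 early, 2 at 2 h, 4 at 6 h and 2 at 9 h. Of the 55 single calls of a member in a comparison, 26 were lost after rescaling, 28 under quantile normalization, 13 with the compared groups alone, 3 with length and GC trends removed and 2 with a pseudocount of 5 TPM. Footprints without centring gave 23, against 1291 of all 2739 shared rows. Leaving out 1 library gave 13 to 20 late, 1 to 3 early, 2 to 11 for late minus early, 9 to 14 for the F test, 0 to 2 at 1 h, 1 at 2 h, 3 to 7 at 4 h, 5 to 10 at 6 h, 2 to 8 at 9 h, 3 to 6 at 12 h, 0 for mock against 0 h and 2 to 28 for footprints. A group left with 1 library was assumed to vary like the others. Except for footprints, counts over all rows are not given for the fits that left out 1 library or for the compared groups alone. Whether the changes of these counts are particular to the members therefore cannot be told. The Baz1a to Baz1b log2 ratio difference reversed to -0.013 without the 6 h libraries. None of the 4 ratios called over 10 pairs stayed under 0.05 after adjustment with only 2 times left, or with arms exchanged only within replicate numbers. With 2 times the arrangements are too few to give any p under 0.05 in the exact test. Within replicate numbers the smallest p it can give is 0.0312, and with 5 of the 10 ratios at it the adjusted p was 0.0625. These 2 settings therefore cannot tell whether the ratios differ. For the other changes in this section the cause was not tested.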
